A study of Mus musculus with 15 samples.

Results

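Expression is described here for 10 genes of proteins that epithelia and their immune cells secrete to defend a mucosal surface, in whole stomachs of developing C57BL/6 mice. They were Bpifb1, Lyg1, Lyz1, Slpi, Wfdc2, Ltf, Lcn2, Dmbt1, Pigr and Reg3g, of 44788 gene symbols in all, and they were chosen by symbol for their patterns in these same transcriptomes. Their levels and differences are therefore a description and carry no test. RNA was sequenced at 15 time points with 1 transcriptome each, which were set here into 3 age windows by birth and weaning. The fetal window held 7 time points (daily from E12.5 to E18.5), the suckling window 5 (D1, D3 and D5 after birth, W1 and W2) and the weaned window 3 (W3, W6 and W8). No treatment is named, and all animals were of the same strain, kept free of specific pathogens. Per the study's methods, a replicate pooled the stomachs of several embryos up to E17.5 and later was a single stomach, and stomachs collected after W2 were from males, without distinction of sex before. Sex and age therefore cannot be told apart in the weaned window. The values are FPKM, in which fragment counts are divided by transcript length and by library size, so they are corrected for gene length and may be compared between genes. No time point was replicated, so the error given with a value is the deposited confidence bound, which covers counting error alone, and the SD of a window includes change with age.

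The surface of the gut is kept by a layer of secreted proteins that arrive at different ages. Lysozymes cut bacterial cell walls, lactoferrin and lipocalin 2 withhold iron, and proteins with a whey acidic protein (WAP) domain restrain proteases. BPI-fold proteins bind lipids, the salivary scavenger receptor encoded by Dmbt1 and the lectin encoded by Reg3g bind bacteria, and the polymeric immunoglobulin receptor encoded by Pigr carries immunoglobulin A from plasma cells across the epithelium. In suckling mice many of these tasks are shared with milk, and the resident bacteria expand at weaning.

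All 5 surface mucous cell markers and all 4 genes of the parietal cell list reached 1 FPKM at 1 or more time points. In the latter list, Kcne2 was at 0.199 FPKM at E12.5, and Gif is described by the study as a product of chief cells. The sum of that list ranged from 12.1 to 655 FPKM in the fetal window and from 5348 to 8861 in the weaned one. Gif held 2081 FPKM of it at W8. Atp4b alone ranged from 4.28 to 327 FPKM in the fetal window and from 2203 to 3404 in the weaned one. Several transcriptomes also held markers of other tissues. At D1, 7 of 9 liver markers had their highest level (Alb 461 FPKM, beside 14.6 at E18.5 and 25.8 at D3), and so did 5 of the 9 neutrophil markers that reached 1 FPKM. At D3, 7 of the 16 pancreatic acinar markers that reached 1 FPKM had their highest level (Ctrb1 84.5 FPKM). The summed pancreatic list was highest at W6 (128853 FPKM), where Clps stood at 128680. At W3 Alb was at 65.4 FPKM, beside 1.81 at W2 and 0.869 at W6. Ctrb1 was at 39.3 FPKM at E15.5, beside 1.59 at E14.5 and 0.219 at E16.5. The part of these tissues in the E15.5 and W3 values given below was not tested. At W8 the 9 markers of the squamous forestomach summed to 19.8 FPKM, beside 1570.4 at W6 and 3294 at W3. Relative depth lay between 0.702 and 1.17 of that at E12.5. Fewer cells of a type and less RNA per cell cannot be told apart in these whole organs.

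The 10 genes peaked at 7 different time points, with a spread from late gestation to adulthood. Wfdc2 was highest at E17.5, Slpi, Ltf and Lcn2 at D1, Dmbt1 and Reg3g at D3, Lyg1 at D5, Bpifb1 at W1, Lyz1 at W6 and Pigr at W8. The bounds at the peak overlapped those at E18.5 for Dmbt1, at W3 for Lyz1, and at W3 and W6 for Pigr. Those of Reg3g overlapped the bounds at W1, W2, W3 and W8. Of the peaks, 6 lay above 10 FPKM and 4 lay below it (Lcn2, Lyz1, Pigr and Reg3g). Together the genes summed to 122 FPKM at E12.5, 12206 FPKM at W1 and 151 FPKM at W8, which was 0.0158%, 1.34% and 0.0135% of all FPKM. Bpifb1 alone made up 97% of the sum at W1, while Wfdc2 made up 80.1% at E12.5 and Slpi 42.9% at W6. The leading gene of the group was thus Wfdc2 up to E14.5, Bpifb1 from E15.5 to W3, and the antiprotease Slpi at W6 and W8.

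**Figure D1:**
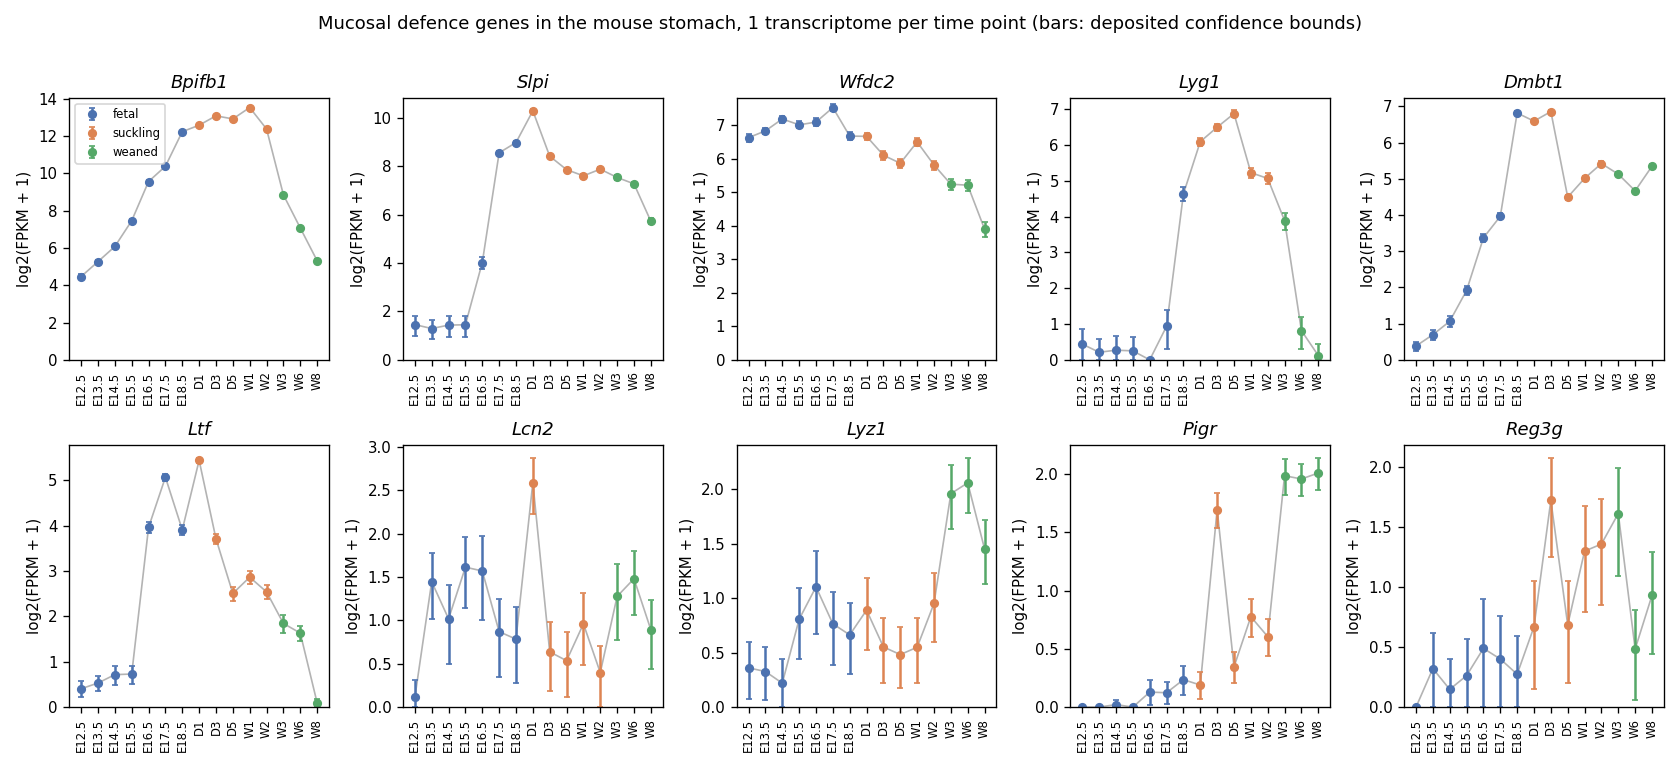
Levels of the 10 genes as log2(FPKM + 1) at the 15 time points (x axis, in order of age), 1 panel per gene. Points are single transcriptomes coloured by window and bars are the deposited confidence bounds. Bpifb1 reaches 11845 FPKM at W1 and stands at 38.9 at W8, and the bars of Lcn2, Lyz1, Pigr and Reg3g are wide, and these genes stay below 10 FPKM.

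Bpifb1 encodes a secreted member of the BPI-fold family and lies at chr2:154190818-154220343 (GRCm38). It covered the widest range of any of the 10 genes in absolute terms. Its FPKM was 21.1 at E12.5, had a fetal median of 175 and reached 4829.5 at E18.5. In the suckling window it was 6147 at D1, 8707 at D3, 7762 at D5, 11845 at W1 and 5336 at W2, and in the weaned window 460.4 at W3, 134 at W6 and 38.9 at W8. Every suckling value lay above every fetal value, and every weaned value lay below every suckling value. Between W2 and W3 the level was divided by 11.6, and the confidence bounds of the 2 time points (5116 to 5557 and 439.8 to 481 FPKM) were far apart. Among all symbols it ranked 4743 at E12.5, 5 at W1 and 1813 at W8. The W8 level was 0.328% of the peak.

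Bpifb5, another BPI-fold gene, begins 3.4 kb after the end of Bpifb1 on the same strand and followed it at a much lower level. Its FPKM was 0.103 at E12.5, between 3.57 and 13.7 in the suckling window, and 0.345, 0.118 and 0.0620 at W3, W6 and W8. The 2 genes correlated with r = 0.93 on the log2 scale over the 15 time points, which share library and depth with each other, and Bpifb1 exceeded Bpifb5 by 71.4-fold (E13.5) to 1490-fold (W2). In the fit across all genes Bpifb5 rose from the fetal to the suckling window by 2.17 ± 0.53 log2 units (SE; limma, Benjamini-Hochberg adjusted p = 0.00356) and fell by 3.25 ± 0.66 at weaning (adjusted p = 0.00169). Both calls were kept under all 24 alternatives, with adjusted p from 0.000151 to 0.0281 and from 0.000176 to 0.0141.

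RefSeq gives Bpifb1 a pair of start sites. The 100 bases before each are shown because the gene has the highest level and largest drop of the group, and capitals mark matches to the motifs described further on. The upstream start is that of the deposited gene position (chr2:154190718-154190817 shown), and the downstream start follows chr2:154200280-154200379 (GRCm38.p6, plus strand, 5′ to 3′).
Bpifb1, upstream start: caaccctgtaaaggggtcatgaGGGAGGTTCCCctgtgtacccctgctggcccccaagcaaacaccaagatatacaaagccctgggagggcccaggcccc
Bpifb1, downstream start: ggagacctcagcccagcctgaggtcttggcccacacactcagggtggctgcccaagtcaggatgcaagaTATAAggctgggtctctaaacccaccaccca
The downstream start has a TATA box beginning 31 bases before it, and the upstream one has a match to an NF-kB-like pattern and no TATA box in these 100 bases. The deposited values are per gene, so the use of either start is not given by them.

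Lyg1, at chr1:37946738-37957759, encodes a goose-type lysozyme. It stayed below 1 FPKM until E17.5. Its fetal FPKM ran from a value listed at 0 at E16.5 over a median of 0.206 to 23.8 at E18.5. It then stood at 67.2 at D1, 89.1 at D3, 116 at D5, 36.4 at W1 and 32.5 at W2, and at 13.8, 0.760 and 0.0875 at W3, W6 and W8. The suckling values lay above all fetal values and above all weaned values. The step from E17.5 (0.915 FPKM) to E18.5 was 26.0-fold, and from W3 to W6 the level was divided by 18.2. At W8 the lower confidence bound was 0, and the peak exceeded the W8 value by 1329-fold. Its promoter is shown because this gene was close to 0 at both ends of the series (chr1:37957760-37957859, minus strand, 5′ to 3′).
Lyg1: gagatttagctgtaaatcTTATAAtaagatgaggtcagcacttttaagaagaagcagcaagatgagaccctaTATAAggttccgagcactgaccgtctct
A TATA box begins 28 bases before the start, and further TATAA letters, which overlap on opposite strands, lie upstream of it.

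Lyz1, at chr10:117287795-117292868, encodes the lysozyme that Paneth cells of the intestine are known for, and it ran the other way. Its FPKM was between 0.165 and 1.15 in the fetal window (median 0.584), and 0.853, 0.467, 0.397, 0.464 and 0.934 at D1, D3, D5, W1 and W2. At W3, W6 and W8 it was 2.89, 3.17 and 1.74, so that every weaned value lay above every suckling value. The step from W2 to W3 was 3.09-fold with bounds that did not overlap (0.516 to 1.35, and 2.1 to 3.68). The bounds at W8 (1.19 to 2.29) did overlap those at W2 and at D1 (0.439 to 1.27). Of 14 Paneth cell markers, 11 were listed at 0 at all time points, the defensin Defa3 among them, and the summed list never exceeded 1.08 FPKM.

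Lyz2, the lysozyme of macrophages and other myeloid cells, lies 5.52 kb from Lyz1 and was always the higher of the pair. It stood at 7.23 to 30.2 FPKM in the fetal window, at 17.0 to 32.2 in the suckling window and at 58.7, 58.1 and 45.2 in the weaned one. The ratio of Lyz2 to Lyz1 ran from 18.3 (W6) to 91.7 (E14.5) with a median of 28.5, and on the log2 scale they correlated with r = 0.91 over the 15 time points. Lyz2 rose at weaning by 1.22 ± 0.32 log2 units (SE; limma, adjusted p = 0.00662, and 0.00139 to 0.0347 under all 24 alternatives). The summed markers of macrophages, a list that contains Lyz2, ranged from 192 to 243 FPKM in the suckling window and from 130 to 274 in the weaned one. Of the 1214 stretches of 50 bases in the Lyz1 transcript, 195 (16.1%) also occur in the Lyz2 transcript (GENCODE vM21). Reads can thus be shared between these paralogs, and the way they were counted is not given in the sources used here. Since Lyz2 stood 18.3- to 91.7-fold higher, a small part of its reads counted for Lyz1 would weigh heavily in the Lyz1 values. The level of Lyz1, its change over time and its correlation with Lyz2 are uncertain for that reason, and this was not tested.

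The starts of these genes are nearly the same sequence. The 100 bases before each are printed below one another because the deposited profiles are similar at levels that differ by more than 10-fold. Here capitals mark the 8 positions at which the sequences differ (Lyz1 chr10:117292869-117292968, Lyz2 chr10:117282273-117282372, both minus strand).
Lyz1: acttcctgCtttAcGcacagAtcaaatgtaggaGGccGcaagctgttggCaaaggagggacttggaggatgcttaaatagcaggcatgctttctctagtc
Lyz2: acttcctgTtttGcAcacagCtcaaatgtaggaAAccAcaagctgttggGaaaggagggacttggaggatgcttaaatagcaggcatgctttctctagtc
The 50 bases nearest the start are identical, and 92 of all 100 are.

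Slpi and Wfdc2 are WAP-domain genes that lie 206.1 kb apart on chromosome 2, yet their profiles differed. Slpi, at chr2:164354070-164356507, encodes an inhibitor of neutrophil elastase and other serine proteases. Its FPKM stayed between 1.45 and 1.74 from E12.5 to E15.5, was 15.3 at E16.5, 375.9 at E17.5 and 504.7 at E18.5, and reached 1253 at D1. It stood at 341 at D3, 232 at D5, 194 at W1 and 235 at W2, then at 185, 154 and 52.1 at W3, W6 and W8. All weaned values lay below all suckling values, and the E17.5 and E18.5 values lay inside the suckling range. The step from E16.5 to E17.5 was 24.6-fold, and D1 exceeded E18.5 by 2.48-fold. D1 was the sole time point above 50% of the peak. The Slpi promoter is shown for this late fetal onset (chr2:164356508-164356607, minus strand).
Slpi: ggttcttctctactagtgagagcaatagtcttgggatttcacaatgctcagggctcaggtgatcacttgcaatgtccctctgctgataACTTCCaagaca
Capitals mark a match to the ETS motif on the opposite strand, and there is no TATAA in the window from 250 bases before to 50 after this start.

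Wfdc2, at chr2:164562564-164568510 as the files place it, encodes a small secreted WAP-domain protein of many epithelia. It was the highest of the 10 genes at E12.5, E13.5 and E14.5 and kept its level through gestation. Fetal FPKM ranged from 97.7 (E12.5) to 183 (E17.5) with a median of 128. Suckling values were 100.5 at D1, 67.6 at D3, 57.2 at D5, 89.4 at W1 and 55.2 at W2, and weaned values were 36.7, 36.0 and 13.9. The D1 and E18.5 values (100.5 and 101 FPKM) had overlapping bounds, so the fetal and suckling ranges met as deposited, whereas all weaned values lay below all suckling ones. The profile stayed above 50% of its peak at 8 time points, the most of any of the genes.

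Ltf, at chr9:111019292-111042766, encodes lactoferrin, which binds iron in milk, secretions and neutrophil granules. Fetal FPKM ran from 0.324 (E12.5) to 32.6 (E17.5) with a median of 0.659. Suckling values were 42.5, 12.1, 4.68, 6.29 and 4.82 at D1, D3, D5, W1 and W2, and weaned values 2.60, 2.1 and 0.0690. Its largest step came between E15.5 and E16.5, 22.2-fold from 0.659 to 14.6 FPKM. Slpi rose 8.81-fold over the same interval, to 15.3 FPKM, before its larger 24.6-fold step to E17.5. The peak exceeded the W8 value by 616-fold and W6 exceeded it by 30.4-fold, but the lower bound at W8 was 0, so neither ratio has an upper limit. The bounds of W6 and W8 were separate. All weaned values lay below all suckling values.

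Lcn2, at chr2:32384637-32387739, encodes the lipocalin that captures bacterial siderophores and is known from neutrophils and inflamed epithelium. It remained low in this series. Fetal FPKM ranged from 0.0806 to 2.06 (median 1.03), suckling values were 5.02, 0.556, 0.450, 0.946 and 0.318, and weaned values 1.42, 1.79 and 0.857. D1 stood alone, 6.95-fold above E18.5 and 9.04-fold above D3, with bounds (3.70 to 6.35 FPKM) that overlapped neither. Apart from D1 the windows covered each other.

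The D1 values of Slpi, Ltf and Lcn2 came from the transcriptome with the liver and neutrophil markers described above. The 15 neutrophil markers summed to 113 FPKM at D1, 50.7 at E18.5 and 24.7 at D3, and ranged from 17.7 to 69.2 in the fetal, 6.30 to 113 in the suckling and 4.24 to 18.2 in the weaned window. Ngp stood at 6.44 FPKM at D1 and at 0.651 and 0.885 at its neighbours. The liver markers summed to 1635 FPKM at D1, 262 at E18.5 and 378 at D3. Their sum was higher still at W6 (2403 FPKM), where Apoa1 stood at 2270, and ranged from 1529 to 2403 in the weaned window. Like the neutrophil sum, that of the squamous forestomach markers was highest at D1 (14793 FPKM, with 11034 at E18.5 and 5062 at D3). Of these 9 markers 3 peaked there, Krtdap (5922 FPKM) among them. Their part in the D1 values was not tested. Without D1 the difference of Ltf between the suckling and fetal windows was 0.72 log2 units in place of 1.22, that of Slpi 4.06 in place of 4.53, and that of Lcn2 -0.43 in place of -0.03.

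At W8, where the forestomach markers nearly vanished, Slpi, Ltf, Wfdc2, Bpifb1 and Lyg1 all had their lowest postnatal value. The share of all genes with that trait was not counted. From W3 to W6 and from W6 to W8, Bpifb1 was divided by 3.44 and 3.44, and Lyg1 by 18.2 and 8.68. The divisors were 1.24 and 30.4 for Ltf, 1.20 and 2.96 for Slpi, and 1.02 and 2.58 for Wfdc2. Ltf and Lyg1 had a lower bound of 0 at W8. Krt13, a keratin of squamous epithelium, went from 273 FPKM at W6 to 5.96 at W8. Without W8 the weaned minus suckling difference was -1.0 for Slpi (-1.56 with it), -1.67 for Ltf (-2.22) and -0.96 for Wfdc2 (-1.41). It was -4.94 for Bpifb1 (-5.82 with W8) and -3.60 for Lyg1 (-4.34). The part of the forestomach in these values was not tested.

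Dmbt1, at chr7:131032057-131121628, encodes a large scavenger receptor cysteine-rich protein that agglutinates bacteria. Its weaned values did not leave the suckling range. Fetal FPKM climbed from 0.304 at E12.5 at each time point to 112 at E18.5 (median 2.77), a 7.65-fold step from E17.5. Suckling values were 95.5, 115, 21.5, 31.3 and 41.9, and weaned values 34.0, 24.4 and 39.7. E18.5, D1 and D3 thus formed a plateau, and D5 was 5.34-fold lower than D3. At W8 it held 34.6% of its peak and ranked 2 of the 10, after Slpi.

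Pigr, at chr1:130826684-130852249, had its highest value at W8, the last time point. Its FPKM was listed at 0 at E12.5, E13.5 and E15.5 and did not exceed 0.177 in the fetal window. Suckling values were 0.140, 2.24, 0.271, 0.712 and 0.521, and weaned values 2.96, 2.88 and 3.02. All weaned values lay above all suckling values, with W3 5.68-fold above W2 and separate bounds for these 2 time points. The bounds at D3 (1.89 to 2.58 FPKM) overlapped those at W3 (2.54 to 3.38) and W6 (2.51 to 3.25). The D3 value stood apart, at 74.0% of the peak, 15.9-fold above D1 and 8.26-fold above D5. That transcriptome also held pancreatic acinar markers. Cela2a was at 22.3 FPKM at D3, with 2.48 at D1 and 0.341 at D5. Their part in the D3 value was not tested, and without D3 the weaned minus suckling difference of Pigr was 1.5 log2 units in place of 1.26.

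Heavy chain RNA of immunoglobulin A, which this receptor carries, appeared later than Pigr. This gene, Igha, was listed at 0 through W2 and stood at 0.0547, 1.4 and 3.49 FPKM at W3, W6 and W8. Ighm, the heavy chain of immunoglobulin M, was present at all time points, between 1.23 (E17.5) and 4.03 FPKM (W2). The light chain Igkc was listed at 0 through E18.5, lay between 1.33 and 2.12 in the suckling window and was 0.737, 4.80 and 13.0 in the weaned one. At W3 Pigr stood at 97.9% of its peak while Igha was close to 0. Igha passed the test at weaning (limma, adjusted p = 0.00516, and 1.75e-05 to 0.0285 under 23 alternatives), with no fold given because all suckling values are listed at 0.

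Reg3g, at chr6:78466268-78468874, encodes a lectin that kills Gram-positive bacteria in the intestine. Its level stayed below 3 FPKM. Fetal FPKM ranged from a value listed at 0 to 0.403 (median 0.209), with a lower bound of 0 at every fetal time point. Suckling values were 0.590, 2.29, 0.606, 1.46 and 1.56, and weaned values 2.05, 0.398 and 0.904. All suckling values lay above all fetal ones, although D3 alone had confidence bounds clear of those of E16.5. The D3 transcriptome also held pancreatic acinar markers, and their part in this value was not tested. The family member Reg3b did not exceed 0.405 FPKM.

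**Figure D2:**
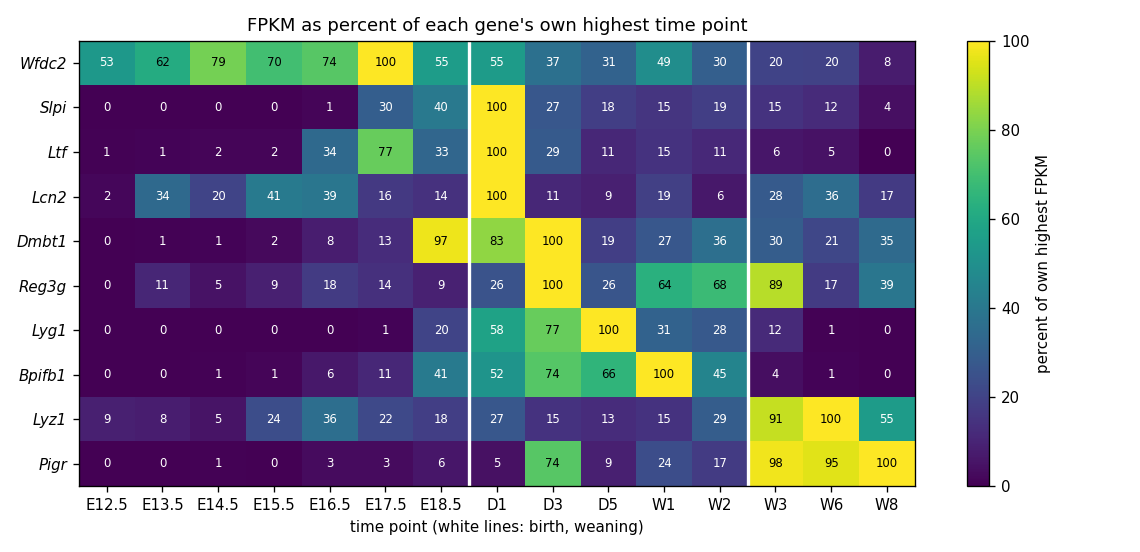
FPKM of each gene (rows, ordered by peak) as a percent of its own highest time point, at the 15 time points in columns. White lines mark birth and weaning. The bright cells run from Wfdc2 before birth over Slpi, Ltf and Lcn2 at D1 and Bpifb1 at W1 to Lyz1 and Pigr after weaning, and Lyg1, Ltf and Bpifb1 hold under 1% of their peak at W8.

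The windows were compared on the log2(FPKM + 1) scale, which understates the change of genes at low FPKM. From the fetal to the suckling window, 5 of the 10 genes were higher by more than 1 log2 unit, namely Lyg1 (4.99), Bpifb1 (4.98), Slpi (4.53), Dmbt1 (3.07) and Ltf (1.22). The number was 7 with a pseudocount of 0.1, which added Reg3g (2.15) and Pigr (2.16), and 4 with a pseudocount of 5 (Ltf 0.57). None was lower by more than 1, with Wfdc2 at -0.80. The share of all genes that differed by more than 1 log2 unit was not counted, so how unusual these numbers are is not known. The fetal SD was wide for the late fetal genes (Slpi 3.89 ± 3.47 and Bpifb1 7.92 ± 2.89, mean ± SD of log2 values, n = 7), since their onset falls inside that window. The median of all 16902 genes tested was -0.22, and relative to it the same 5 genes stood at 5.21, 5.20, 4.75, 3.29 and 1.44. In 3 of the 10 genes (Bpifb1, Lyg1 and Reg3g) the suckling values all lay above the fetal values, beside 6.63% of all genes tested (12% with median-ratio scaling, with the same 3 genes). In none did they all lie below, beside 20.9% (11.4% with median-ratio scaling), but with FPKM rescaled to a fixed sum without the 10 highest genes Wfdc2 did, beside 12%. By limma at an adjusted p under 0.05, 17% of all genes were higher and 41.9% lower.

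From the suckling to the weaned window, 5 genes were lower by more than 1 log2 unit, namely Bpifb1 (-5.82), Lyg1 (-4.34), Ltf (-2.22), Slpi (-1.56) and Wfdc2 (-1.41). Pigr (1.26) and Lyz1 (1.14) were higher by more than 1. Here too the share of all genes beyond 1 log2 unit was not counted. The remaining Dmbt1 (-0.63), Lcn2 (0.19) and Reg3g (-0.14) differed by less than the SD within a window of at least 1 side. The same 5 genes were those whose weaned values all lay below the suckling values, beside 46.5% of all genes, and the same 2 those with all weaned values above, beside 4.9%. With median-ratio scaling these shares of all genes were 17.3% below and 22.2% above, the latter close to the share of the 10 genes. The median of all genes was -0.42 here, so that relative to it Bpifb1 stood at -5.40, Lyg1 at -3.92, Wfdc2 at -0.99, Slpi at -1.14, Lyz1 at 1.56 and Pigr at 1.68. By limma, 4.9% of all genes were higher and 46.7% lower. When the transcriptomes were scaled by the median ratio, Bpifb1 (-5.23), Lyg1 (-4.06) and Ltf (-1.91) kept weaned values below all suckling ones, while the ranges of Slpi (-0.98) and Wfdc2 (-0.83) met and these genes were no longer lower by more than 1. That scaling gave 3531 genes higher and 2662 lower in place of 829 and 7891.

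**Figure D3:**
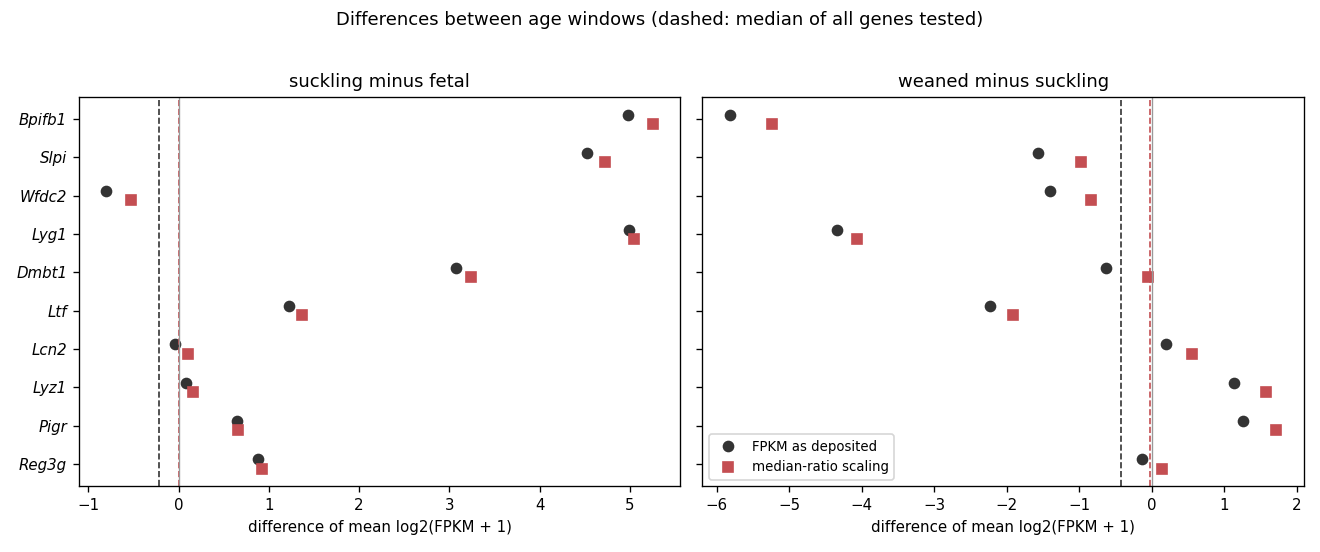
Difference of the window means of log2(FPKM + 1) for each gene, suckling minus fetal on the left and weaned minus suckling on the right. Circles are FPKM as deposited, squares the values after median-ratio scaling, and dashed lines the median of all genes tested under each. Bpifb1 and Lyg1 lie farthest out on both sides, at 4.98 and 4.99 and at -5.82 and -4.34.

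The genes differed in shape over time. Over the 45 pairs, the median Pearson r of log2(FPKM + 1) was 0.30, and 15 pairs were below 0. These correlations use 15 time points that share age and depth and are given as a description. Dmbt1 and Slpi (0.92), Lyg1 and Bpifb1 (0.87), Slpi and Bpifb1 (0.79) and Ltf and Bpifb1 (0.78) were the closest pairs. Wfdc2 and Pigr were the most opposed (-0.84), followed by Lyz1 and Wfdc2 (-0.65).

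The genes of the whole transcriptome with the most similar profiles differed by member, and names with LOC, Gm or Rik are those of predicted or uncharacterised genes. For Bpifb1 they were Tm4sf5 (r = 0.98), Por and Cym, the milk-clotting protease chymosin, which peaked at W1 as well (117136 FPKM). For Ltf they were 2310007B03Rik (0.97), the kallikrein Klk10 and the WAP-domain gene Wfdc5, and for Lyg1 2310005G13Rik (0.96), the late cornified envelope gene Lce6a and Serpinb7. Slpi was nearest to LOC102632987 (0.98), Glrx and Gm6551, and Dmbt1 to Sh3bgrl2 (0.96), Nucb2 and Cst8. Wfdc2 was nearest to Rpl28 (0.97), Ascc1 and Rps24, of which Rpl28 and Rps24 encode ribosomal proteins. Lyz1 was nearest to Ndufb6 (0.93), Ankrd9 and Mdh2, Pigr to Try4 (0.95), LOC102636540 and Apol9a, and Reg3g to Nfkb2 (0.91), Fmo5 and Sqstm1. The nearest genes of Lcn2 reached 0.72 at most (Fam131c, then LOC102638629 and LOC102640185), with 1 high value at D1.

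**Figure D4:**
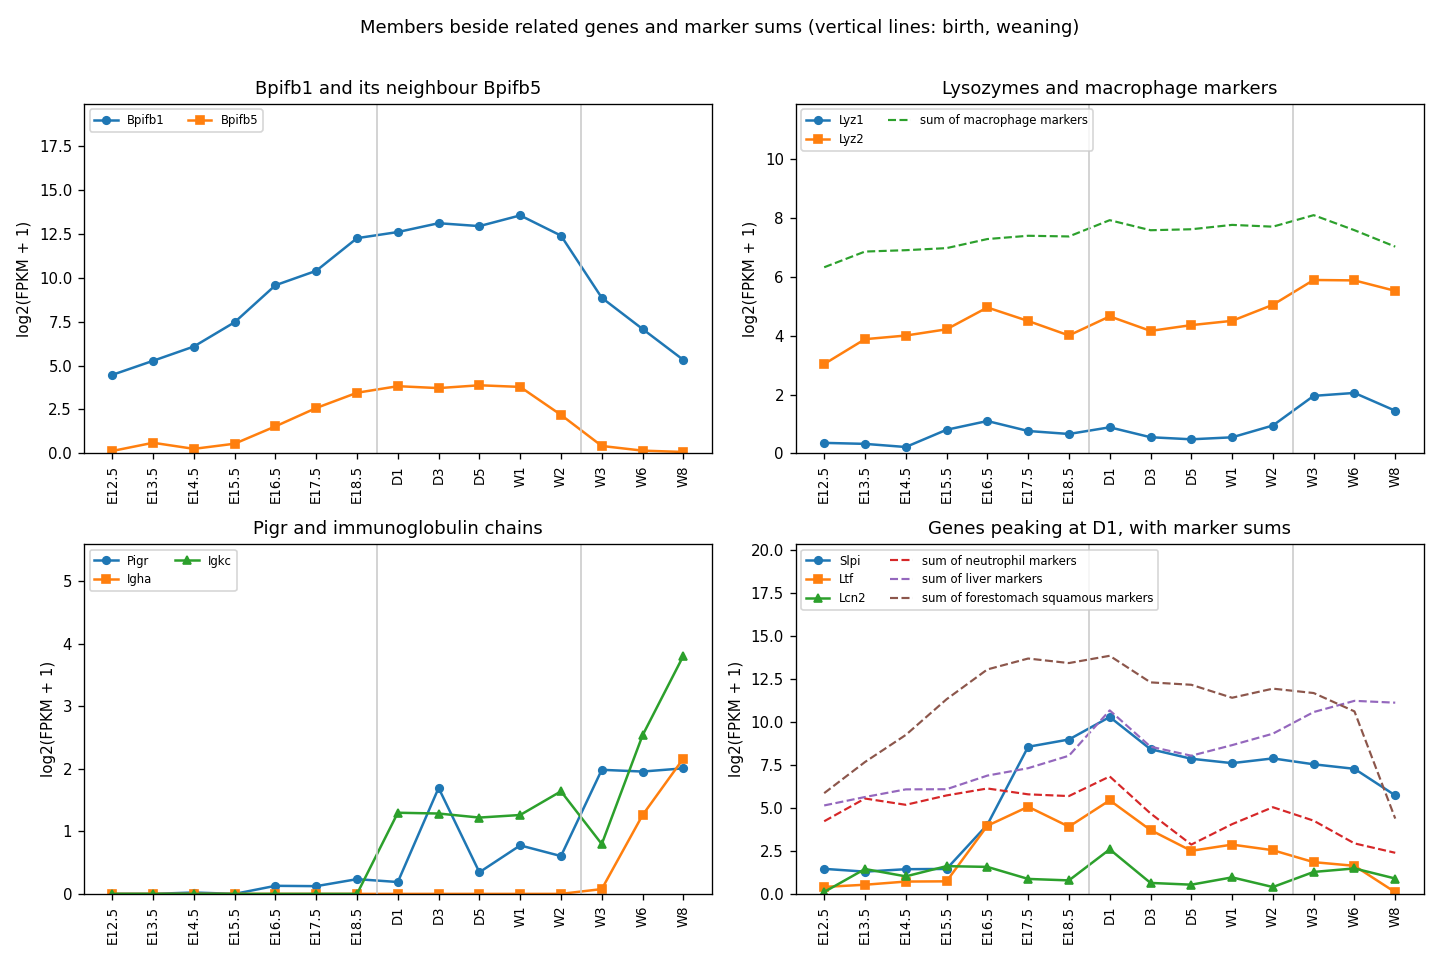
Members beside related genes and marker sums as log2(FPKM + 1) at the 15 time points, with lines at birth and weaning. Bpifb5 follows Bpifb1, Lyz1 follows Lyz2 at a lower level, Pigr stands at 2.96 FPKM at W3 when Igha is at 0.0547, and Slpi, Ltf and Lcn2 share the D1 maximum with the summed neutrophil and forestomach markers.

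Relatives and partners of the 10 genes were taken from 9 lists of 183 genes, set by family and role, of which 177 were in the files and 100 reached 1 FPKM. From the fetal to the suckling window 38 of the 100 rose, 5 fell and 57 passed the test in neither direction, beside 17% and 41.9% of all genes. At weaning 13 rose and 22 fell, beside 4.9% and 46.7%. Median-ratio scaling gave 49 rising and 1 falling at birth, and 25 and 14 at weaning, so the balance at weaning turned with the scaling. Of 42 calls of named genes, 29 were kept under every alternative and 13 were lost under 1 or more, none with another sign.

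Within the families, few relatives were expressed at all. In the BPI-fold list 4 of 16 genes reached 1 FPKM, of which 2 rose after birth (Bpifb5 and Lbp, the lipopolysaccharide-binding protein, 0.64 ± 0.14 log2 units, adjusted p = 0.00172). At weaning 3 fell, among them Pltp (-1.50 ± 0.27, adjusted p = 0.000868), a plasma phospholipid transfer protein. In the WAP-domain list 9 of 18 reached 1 FPKM, with 2 rising and 1 falling after birth and 2 rising and 3 falling at weaning. Wfdc10 rose by 2.0 ± 0.29 (adjusted p = 0.000193) and fell at weaning by 1.79 ± 0.36 (adjusted p = 0.00154), and Wfdc1 had the highest level (53.2 FPKM at W1). Of the lysozyme list only Lyz2 reached 1 FPKM, and of the Reg list only Reg1, which rose after birth by 0.96 ± 0.14 (adjusted p = 0.000216) to at most 1.48 FPKM.

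In the list of transferrins and lipocalins, 4 of 5 genes tested rose after birth, among them the acute-phase protein Orm1 (2.48 ± 0.38, adjusted p = 0.000242). Transferrin itself, Trf, peaked at D1 with 186 FPKM beside 22.5 at E18.5 and 26.5 at D3, and its call (1.60 ± 0.51, adjusted p = 0.0147) was lost without D1 and D3 (adjusted p = 0.0549, and 0.00705 to 0.0549 over all alternatives). In the scavenger receptor list, 2 of 12 rose and 2 fell after birth, and the rise of Cd163 was lost under 12 of 23 alternatives (adjusted p = 0.0396, and 0.00121 to 0.178 over them). At weaning 6 of 12 fell, beside 46.7% of all genes, among them Loxl2 (-1.64 ± 0.30, adjusted p = 0.00101) and Loxl3 (-1.52 ± 0.21, adjusted p = 0.000225), both lysyl oxidases of the matrix.

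Of 31 other secreted defence genes tested, 8 rose after birth and none fell by limma, while at weaning 6 rose and 2 fell. Complement C3 rose after birth by 3.51 ± 0.33 (adjusted p = 2.71e-05), the mucosal chemokine Cxcl17 by 3.19 ± 0.54 (adjusted p = 0.000408) and the dual oxidase partner Duoxa2 by 3.14 ± 0.75 (adjusted p = 0.00299). Most of the increase of Cxcl17 came after W1, with 4.45 FPKM at D1, 11.9 at W1, 96.8 at W2 and 139 at W8. The weaned stomach carried acidic chitinase Chia1 (8.19 ± 0.69, adjusted p = 1.84e-05, up to 9319 FPKM at W8) and the lectin Zg16 (5.18 ± 0.33, adjusted p = 2.74e-06, up to 83.1 FPKM at W6). At W8 Chia1 thus exceeded the 10 genes together, which summed to 151 FPKM.

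In the immunoglobulin A list 4 of 8 genes tested rose after birth and none fell by limma, and 2 rose and 1 fell at weaning. Derl3, an endoplasmic reticulum protein of secretory cells, rose by 3.58 ± 0.44 (adjusted p = 0.000103), and Fcgrt, the neonatal Fc receptor that takes up milk antibody, fell at weaning by 1.69 ± 0.31 (adjusted p = 0.000939), from 61.4 at W1 to 10.9 FPKM at W8. Of the 29 inducing cytokines, receptors and transcription factors tested, 15 rose and 2 fell after birth and 1 rose and 6 fell at weaning, or 9 rose and 1 fell with median-ratio scaling. Among those rising after birth were the secretory regulators Bhlha15 (2.0 ± 0.49, adjusted p = 0.00348) and Spdef (1.12 ± 0.32, adjusted p = 0.00867). The cytokines Il17a and Il22, known to induce Reg3g and Lcn2 in the intestine, were at most 0.116 and 0.0575 FPKM.

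Promoters of 9 of the 10 genes were in the RefSeq table, 11 in all, each with 250 bases before and 50 after the start. Motifs were searched on both strands as letters in which N is any base. TATAA was found for 3 of the 9 genes (Lyg1, Reg3g and Bpifb1), beside 24.9% of all 32851 promoters, and TTGCNNAA, the C/EBP motif, for 4 (Lyz1, Ltf, Lcn2 and Slpi), beside 10.8%. TTCNNNGAA, the STAT motif, was found for Bpifb1 (downstream start, beginning 146 bases before it) and Pigr (beginning 39 bases after the start), beside 8.3%. The loose NF-kB pattern, GGG and CCC with any 5 bases between, was found for Ltf, Bpifb1 and Pigr, beside 14%, where the C/EBP and NF-kB matches of Ltf did not overlap. GGAAGT, the ETS motif, was found for Lyz1 and Slpi, beside 23.8%. The stricter NF-kB letters, GGG and TTTCC with any 2 bases between (1.63% of promoters), the AP-1 motif TGANTCA (7.81%) and the HNF1 motif (0.0609%) were in none of the 11. The match is to letters alone, and no binding was measured.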

How the data were processed

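Per the labels, whole stomachs of C57BL/6 mice were sequenced, 1 transcriptome per time point. The authors deposited FPKM with lower and upper confidence bounds per gene entry, on GRCm38 positions. The study's methods name FastQC, HISAT2 and StringTie with a GENCODE annotation, the submitters' processing notes name Bowtie 0.12.2, and the files have the layout of Cufflinks, so the tool behind the values was not settled. The methods also call the RNA source liver, whereas the labels say stomach. Rows were matched by gene entry, and entries of a symbol were summed (each of the 10 genes has 1). Symbols whose highest FPKM was 1 or more were tested on log2(FPKM + 1) with limma 3.58.1 in R 4.3.3 over the 3 windows, time points serving as replicates, with Benjamini-Hochberg adjustment at 0.05. The test was checked on simulated data. Read depth per sample is unknown; relative depth came from entries at the level of 1 fragment. Members and lists were chosen with earlier results of these data known. Named relatives were, per list and contrast, at most 3 called genes of largest difference and the 2 of highest FPKM, and per member the 3 most correlated genes whose highest FPKM was 5 or more. Marker genes and cytokines named beyond this rule were chosen after their values were seen. No table column was left unmapped. Alternatives were other pseudocounts (0.1 and 5), FPKM limits, scalings, the study's RNA phases, first entries, leaving out each time point, and, chosen after seeing the data, leaving out D1 and D3. Protein sequences were not analysed here. Python 3.11.15, pandas 2.3.3 and matplotlib 3.10.9 were used.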

Additional observations from a re-analysis of the deposited data

How the results depend on the processing

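Of 440 recomputed differences of the 10 genes, 427 moved by less than the pooled SD within windows, 13 moved by more and none beyond 1 log2 unit changed direction. That SD includes change with age and is wide for some genes (fetal SD 3.47 log2 units for Slpi and 2.89 for Bpifb1). A move below it is therefore a weak measure of stability. With a pseudocount of 5, no gene was higher by over 1 log2 unit at weaning (2 with a pseudocount of 1), since Pigr and Lyz1 lie below 4 FPKM, and with median-ratio scaling 3 were lower by over 1 (5 as deposited). Leaving out each time point gave 4 to 5 genes higher and 0 to 0 lower after birth, and 2 to 2 higher and 4 to 5 lower at weaning; without D1, Ltf was at 0.72. All genes called ranged from 2471 to 3186 higher and 6236 to 7549 lower after birth, and from 575 to 989 higher and 4652 to 8371 lower at weaning, the lowest values of the latter without W6. Median-ratio scaling gave 4400 higher and 4195 lower after birth (2865 and 7079 as deposited), and 3531 and 2662 at weaning (829 and 7891). Without D1 and D3, 489 genes were higher at weaning. With that scaling Reg3g peaked at W3 and Pigr at W6. No paired analysis was possible because no time point has a replicate. FPKM below 1 rest on few fragments, so Lcn2, Lyz1, Pigr and Reg3g are the least certain.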
